A study of Mus musculus with 10 samples.

Results

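The metallothionein genes Mt1, Mt2, Mt3 and Mt4 and their zinc-sensing regulator Mtf1 were examined in testis DNA of mice labelled F2, with 5 libraries labelled control and 5 labelled arsenic. The members were 5 named genes, and every measured CpG inside each gene and within 5000 bp of either end was taken, which gave 285 of the 1407384 CpGs in the deposited table. The labels give the tissue, the F2 generation and the group; they call the arsenic libraries arsenic-treated and do not say which ancestor received arsenic, at what dose or for how long. Strain and age are likewise not given in the sources used here, nor whether each library is a different mouse, so the p-values rest on a spread between libraries that may be technical. Methylation was read by reduced representation bisulfite sequencing (RRBS), in which CpG-rich restriction fragments are sequenced after a treatment that turns unmethylated cytosines into thymines. The methylation level is the share of reads at a CpG that kept the cytosine, averaged here over the CpGs of a region with equal weight.

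Metallothioneins are small cysteine-rich proteins that bind zinc, copper and toxic elements such as cadmium and arsenic. Mt1 and Mt2 are made in most tissues and are induced by metals, whereas Mt3 is known from brain and Mt4 from stratified squamous epithelium. Mtf1, metal-responsive transcription factor 1, is a zinc finger protein that binds short metal response elements (MREs) near the starts of Mt1, Mt2 and zinc transporter genes. CpG methylation at a gene start commonly accompanies silence of that gene, and starts rich in CpGs are mostly unmethylated. No RNA was analysed here, so the levels below describe DNA only.

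On the mm10 assembly the 4 metallothionein genes lie in tandem on the plus strand of chromosome 8, Mt4 at chr8:94137204-94139031, Mt3 at chr8:94152607-94154148, Mt2 at chr8:94172618-94173567 and Mt1 at chr8:94178883-94180327. Mtf1 lies on the plus strand at chr4:124802549-124849800. Distances below are in bp from the RefSeq start of each gene, which for Mt1 is base 94179089. The 250 bases before each start, from RefSeq on GRCm38.p6, are printed because they show which starts the assay could read. Letters are lower case, and capitals mark the CpGs measured in all 10 libraries.
Mt2, chr8:94172368-94172617: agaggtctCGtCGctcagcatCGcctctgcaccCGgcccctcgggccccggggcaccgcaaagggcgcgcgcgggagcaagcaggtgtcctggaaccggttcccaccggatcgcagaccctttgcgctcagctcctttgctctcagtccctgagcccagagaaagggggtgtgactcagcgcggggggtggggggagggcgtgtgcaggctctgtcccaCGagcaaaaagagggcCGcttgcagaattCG
Mt1, chr8:94178839-94179088: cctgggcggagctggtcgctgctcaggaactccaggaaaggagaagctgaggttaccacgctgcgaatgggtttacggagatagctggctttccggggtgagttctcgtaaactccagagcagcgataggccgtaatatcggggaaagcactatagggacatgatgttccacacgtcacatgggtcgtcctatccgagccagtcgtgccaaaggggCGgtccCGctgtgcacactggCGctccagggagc
Mtf1, chr4:124802299-124802548: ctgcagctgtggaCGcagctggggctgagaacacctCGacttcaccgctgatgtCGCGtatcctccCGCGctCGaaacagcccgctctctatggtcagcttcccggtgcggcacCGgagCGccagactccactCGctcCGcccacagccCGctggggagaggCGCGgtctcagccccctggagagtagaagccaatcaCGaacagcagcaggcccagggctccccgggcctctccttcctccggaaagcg
Mt3, chr8:94152357-94152606: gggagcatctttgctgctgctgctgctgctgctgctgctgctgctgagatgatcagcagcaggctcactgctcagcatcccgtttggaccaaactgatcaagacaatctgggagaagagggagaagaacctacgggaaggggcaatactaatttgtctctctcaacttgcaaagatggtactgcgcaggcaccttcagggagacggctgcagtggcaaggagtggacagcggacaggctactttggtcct
Mt4, chr8:94136954-94137203: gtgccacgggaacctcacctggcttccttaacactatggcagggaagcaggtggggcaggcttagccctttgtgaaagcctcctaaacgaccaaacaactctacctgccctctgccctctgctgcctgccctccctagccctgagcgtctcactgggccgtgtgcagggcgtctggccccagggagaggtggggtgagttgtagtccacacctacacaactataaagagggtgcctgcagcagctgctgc

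The sequences separate the genes before any reads are counted. From 250 bases before to 50 bases after the start there were 24 CpGs at Mt2, 24 at Mt1 and 25 at Mtf1, against 8 at Mt3, 5 at Mt4 and a median of 13 over 17491 RefSeq promoters of the same length. In the 250 bases printed, 7 CpGs of Mt2, 3 of Mt1 and 15 of Mtf1 were measured, and none of Mt3 or Mt4. The core of the MRE was searched as TGCACNC and TGCGCNC on both strands of the 300 bases. Mt2 held 4 matches and Mt1 held 3, Mt3 and Mt4 held 1 each, and Mtf1 held 0, which says only that these letters are not in that window. At least 1 match stood in 29.1% of all promoters, at least 3 in 2.45% and at least 4 in 0.635%. The CpG form accounted for 3 of these matches, in Mt2 at -128 and +4 and in Mt1 at +20, and none of these CpGs was measured. The measured CpGs of Mt2 at -217 and +3 each share 1 base with a match. The letters TATAAA were found in the Mt4 window alone among the 5 members. Letters outside these windows were not searched. The Mt1 gene record begins upstream of the RefSeq start used, so what was found or missed at Mt1 depends on that start.

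The order of the 5 windows, each being the gene with its flanks, was the same in every library: Mt4 highest, then Mt3, Mtf1, Mt1 and Mt2. Every neighbour in that order differed in 10 of 10 libraries, with an exact sign-flip permutation p of 0.00195, the smallest that 10 libraries can give. The order was set by the control means of these same libraries, so this p-value is no separate test of it. The windows were read at 5 CpGs for Mt4, 29 for Mt3, 55 for Mt2, 53 for Mt1 and 146 for Mtf1, and 3 CpGs between Mt2 and Mt1 belong to both. Among 18309 protein-coding gene windows, 99.0% had a control level at or below the Mt4 level, and 8.85% at or below the Mt2 level. The Mt3 window stood at the 84.9% point of that ranking, Mtf1 at 46.7% and Mt1 at 13.5%, and the median window was at 43.7%. These positions describe which CpGs of each gene the assay covers as well as the genes themselves.

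Mt4, the epithelial member, was almost fully methylated at its 5 measured CpGs, all of which lie near its end or beyond it, between +1613 and +1919. Window levels in the control libraries 1 to 5 were 93.2%, 95.2%, 96.8%, 93.9% and 97.3%. In the arsenic libraries 1 to 5 they were 92.9%, 97.6%, 96.9%, 97.1% and 96.1%. The groups overlapped almost entirely, and the means of 95.3% ± 1.78 in control and 96.1% ± 1.89 in arsenic (SD, n = 5 each) differed by less than that spread (exact permutation p = 0.476). No CpG was measured within 500 bp of the Mt4 start.

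Mt3, the member known from brain, had a high window level of 78.1%, 79.7%, 80.6%, 80.6% and 77.6% in control libraries 1 to 5. The arsenic libraries had 81.6%, 78.3%, 73.4%, 76.9% and 78.4%. Arsenic library 1 was the highest and arsenic library 3 the lowest of all 10, so the arsenic values enclosed the control values, and the means of 79.3% ± 1.39 and 77.7% ± 2.96 did not differ beyond the spread (exact permutation p = 0.325). The level was not even along the gene. Upstream, 9 CpGs between -1623 and -1133 averaged 89.4% ± 5.04 over the control and 87.5% ± 1.65 over the arsenic libraries. Inside the gene, 6 CpGs between +1235 and +1379 were at 53.8% ± 9.31 and 50.3% ± 8.97 (exact permutation p = 0.587). Beyond the gene, 14 CpGs between +1635 and +3520 were at 83.8% ± 4.08 and 83.1% ± 3.64. The 6 CpGs inside Mt3 were thus partly methylated, with a control level from 45.5% in library 1 to 68.4% in library 5, while the measured CpGs on both sides were mostly methylated. No CpG was measured between -1133 and +1235, which takes in the Mt3 start and most of the gene. Without control library 5 the sign of the difference inside the gene turned, from -3.42 to 0.24 percentage points, and without arsenic library 3 the window difference went from -1.59 to -0.51.

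Mt2, the metal-induced member with the lowest level, had window values of 9.34%, 8.71%, 7.23%, 8.77% and 9.37% in control libraries 1 to 5 and of 10.5%, 7.66%, 9.29%, 6.69% and 10.7% in arsenic libraries 1 to 5. The highest and the lowest library were both arsenic ones, and the means of 8.69% ± 0.868 and 8.97% ± 1.76 did not differ beyond the spread (exact permutation p = 0.754). The sign of this difference turned without control library 3, arsenic library 1 or arsenic library 5, to -0.15 percentage points at the lowest. Within 500 bp of the start, 35 CpGs were at 2.63% ± 1.07 in control and 2.81% ± 2.01 in arsenic (exact permutation p = 0.857). Further into the gene, 9 CpGs between +525 and +650 were at 9.66% ± 4.31 and 10.6% ± 2.86, and 8 CpGs upstream, between -1235 and -1020, were at 7.85% ± 2.26 and 8.15% ± 0.988. The unmethylated region thus reached beyond both sides of the start and over the measured part of the gene. It ended before the 3 CpGs that separate Mt2 from Mt1, which lie 5023 to 5284 bp from the Mt2 start and were at 78.6% ± 6.29 and 78.1% ± 3.64.

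Mt1 had window values of 10.7%, 9.31%, 13.6%, 13.8% and 18.9% in control libraries 1 to 5 and of 12.5%, 10.96%, 10.7%, 13.2% and 14.2% in arsenic libraries 1 to 5. Control library 5 was the highest and control library 2 the lowest of all 10. The means of 13.3% ± 3.69 and 12.3% ± 1.47 did not differ beyond the spread (exact permutation p = 0.683), and the control SD was at or above that of 86.5% of all gene windows. At the start, 27 CpGs between -34 and +465 were at 2.51% ± 1.25 in control and 2.06% ± 0.868 in arsenic (exact permutation p = 0.548), so Mt1 and Mt2 had near-empty starts alike. Towards the 3' end of Mt1 the level rose: 8 CpGs between +642 and +885 were at 30.6% ± 4.67 and 32.1% ± 4.01. Within that stretch the CpG at +823 stood out at 82.2% ± 10.1 in control and 87.9% ± 6.38 in arsenic, between 39.3% ± 13.3 and 40.1% ± 16.9 at +762 and 32.8% ± 13.0 and 34.9% ± 20.02 at +839. All of these 3 CpGs were read on 1 strand. In every one of the 10 libraries the CpG at +823 was higher than both of these neighbours, with a lowest value of 66.7% in control library 4.

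Within the Mt1 window the libraries differed most at 15 CpGs 4172 to 4427 bp past the start, beyond the gene. Control libraries 1 to 5 had 0%, 0%, 5.87%, 14.2% and 31.6% there, and arsenic libraries 1 to 5 had 7.01%, 0.606%, 2.83%, 13.7% and 11.2%. Control library 5 was the highest, and the group means of 10.3% ± 13.2 and 7.08% ± 5.51 did not differ beyond the spread (exact permutation p = 0.722). Coverage per CpG was between 11 and 26 reads, and CpGs this close share reads, so the 15 CpGs are not independent readings. Without control library 5 the difference there turned from -3.25 to 2.07 percentage points, and that of the whole Mt1 window from -0.95 to 0.46.

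**Figure D1:**
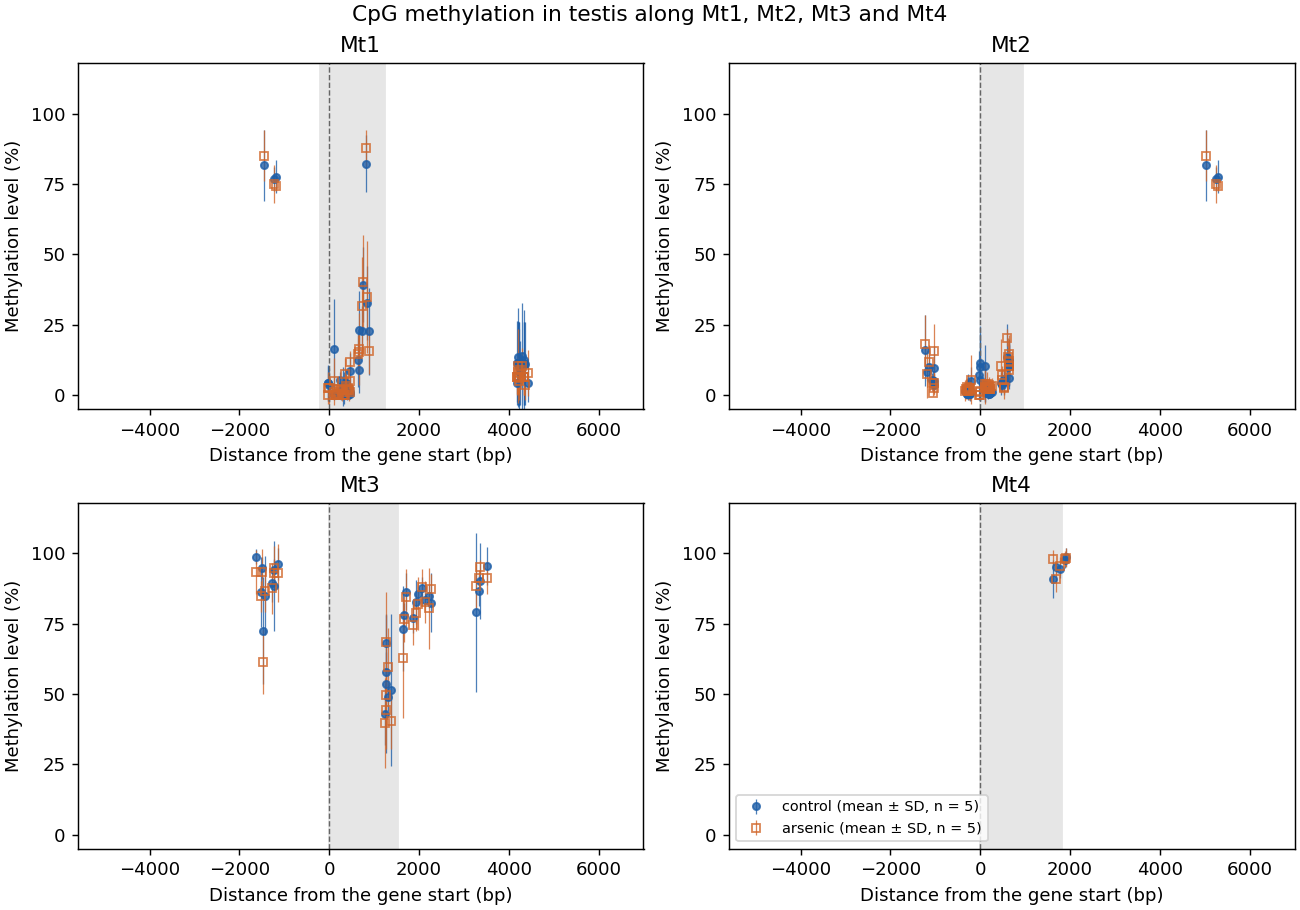
Methylation level (%) of each measured CpG against the distance in bp from the gene start in Mt1, Mt2, Mt3 and Mt4, as means with SD bars over the 5 control (filled circles) and 5 arsenic (open squares) libraries; the grey band is the gene. Mt4 and Mt3 are high except for the CpGs inside Mt3, at 53.8% in control, whereas the Mt2 and Mt1 starts lie near 0, with 1 Mt1 CpG at 82.2% in control.

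Mtf1, the regulator, combined a near-empty start with a methylated gene. Its window values were 40.9%, 40.2%, 39.4%, 39.4% and 43.9% in control libraries 1 to 5 and 39.98%, 38.8%, 40.4%, 41.3% and 40.5% in arsenic libraries 1 to 5. Control library 5 was again the highest, and the means of 40.8% ± 1.86 and 40.2% ± 0.918 did not differ beyond the spread (exact permutation p = 0.635). At the start, 26 CpGs between -332 and +475 were at 1.15%, 0.322%, 3.16%, 4.27% and 2.80% in control libraries 1 to 5 and at 1.32%, 0.355%, 6.52%, 5.15% and 7.49% in arsenic libraries 1 to 5. Of the arsenic libraries, 3 were above every control library and 2 lay within the control range, and the means of 2.34% ± 1.59 and 4.17% ± 3.17 did not differ beyond the spread (exact permutation p = 0.270). Without arsenic library 5 that difference went from 1.83 to 0.996 percentage points, and without arsenic library 2 to 2.78. Inside the gene, 57 CpGs between +503 and +45270 were at 79.0% ± 2.89 and 80.3% ± 0.976 (exact permutation p = 0.413). Control library 1 was the lowest there, at 74.1%, and without it the difference went from 1.31 to 0.093 percentage points. The upstream CpGs, 10 of them between -4459 and -4145 inside Inpp5b, a phosphoinositide phosphatase gene, were at 98.6% ± 1.23 and 97.0% ± 2.95.

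The 3' part of the Mtf1 window belonged to its neighbours. The level fell through 4 CpGs from +45134, at 86.0% ± 13.7 in control, to +45270, at 29.6% ± 19.9. Beyond the gene end, 53 CpGs were at 7.68% ± 5.39 in control and 4.04% ± 1.68 in arsenic, at 1110065P20Rik and at Yrdc, a gene for a tRNA-modifying enzyme. Control libraries 1 to 5 had 13.7%, 6.11%, 2.65%, 2.88% and 13.1% there, and arsenic libraries 1 to 5 had 4.75%, 3.29%, 3.27%, 6.59% and 2.28%. Control libraries 1 and 5 were above the other 8, which overlapped, and the difference between the groups was within the spread (exact permutation p = 0.262). That difference went from -3.64 to -2.15 percentage points without control library 1 and to -2.29 without control library 5. The mean of the Mtf1 window therefore averages 2 unmethylated stretches with the methylated gene between them. Without control library 5 the sign of the window difference turned, to 0.19 percentage points arsenic minus control.

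**Figure D2:**
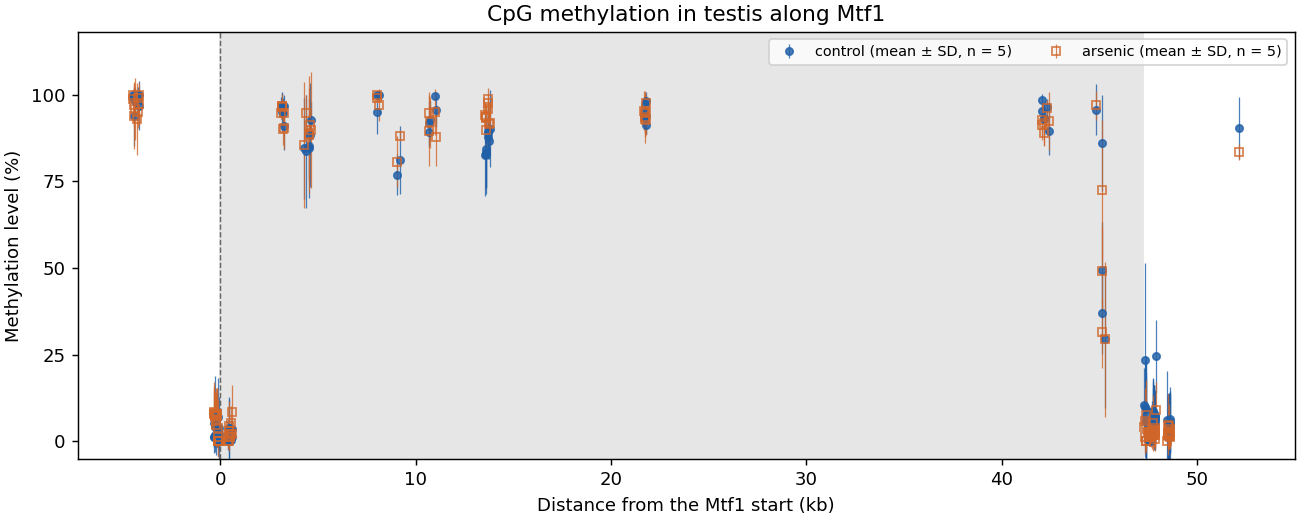
Methylation level (%) of each measured CpG against the distance in kb from the Mtf1 start, as means with SD bars over the 5 control (filled circles) and 5 arsenic (open squares) libraries; the grey band is the gene. The start lies near 0, the gene is at 79.0% in control on average, and the level drops at the gene end, where 1110065P20Rik and Yrdc lie.

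**Figure D3:**
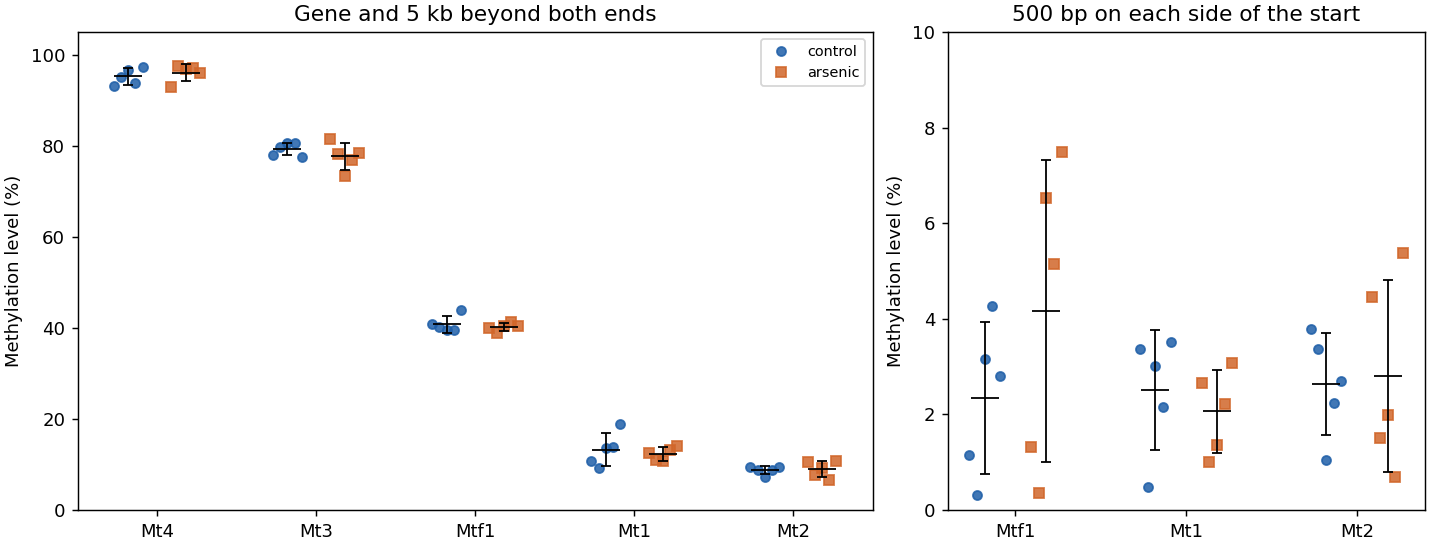
Methylation level (%) of each library, as points with the mean and SD of each group of 5, for the 5 windows on the left and for the 3 measured gene starts on the right; control libraries are circles and arsenic libraries squares. The windows are ordered from Mt4 to Mt2 in every library and the groups overlap in each of them; at the starts 3 arsenic libraries lie above the controls for Mtf1.

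At the gene starts the order was not resolved: Mtf1 was above Mt2 in 6 of 10 libraries (exact sign-flip permutation p = 0.580) and Mt2 above Mt1 in 7 of 10 (p = 0.402, exact). Set among 9587 gene starts with at least 3 measured CpGs, the control levels of Mtf1, Mt1 and Mt2 were at or above 46.0%, 49.5% and 51.7% of them. The median start was at 2.53%, and 89.2% of all starts were under 10%, so the low levels of these 3 starts are those of an ordinary gene start in these libraries.

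The question the design asks, whether the arsenic libraries differ from the control libraries, was put to windows, 1000 bp tiles and single CpGs with a quasi-binomial model of the methylated share of reads and Benjamini-Hochberg adjustment over all features of a kind. A call needed a difference of 10 percentage points or more with an adjusted p under 0.05. Of the 5 windows 0 were called, beside 0% of all gene windows, 0 had an unadjusted p under 0.05, beside 5.68%, and 0 had groups that did not overlap, beside 0.847%. The read-weighted difference was largest for Mt1, at -2.26 percentage points arsenic minus control, with an unadjusted p of 0.0635 and an adjusted p of 0.884 from this model. Of 26 tiles with at least 3 CpGs 0 were called, beside 0% of all tiles, and 2 (7.69%) had an unadjusted p under 0.05, beside 5.80%. Of the 285 CpGs 0 were called, beside 0% of all CpGs, and 18 (6.32%) had an unadjusted p under 0.05, beside 6.85%. Of these 18, 12 were lower in arsenic and 6 higher, beside 3.93% and 2.93% of all CpGs. The groups did not overlap at 2 of the CpGs (0.702%), beside 0.575% of all CpGs, and in 1 of the tiles, beside 0.826% of all tiles. These shares are near their backgrounds, and the lowest adjusted p over the whole table was 0.642 for CpGs, 0.474 for tiles and 0.815 for gene windows. As an alternative, limma was run on log2 ratios of the methylated and unmethylated counts of the same features; it called 0 CpGs, 1 tile and 1 gene window in the whole table, none of them in these windows.

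The 26 tiles repeated the split between the genes. Of these, 14 had a control level above 70%, 10 were below 20% and 2 lay between, in Mt3 at 53.8% and at the 3' end of Mtf1 at 59.6%. Over all tiles 66.8% were above 70% and 17.9% below 20%. The mean was lower in arsenic in 16 tiles and higher in 10, beside 51.9% lower over all tiles. Differences ran from -7.00 to 8.15 percentage points with a median of -0.78, beside a median of -0.10 over all tiles. The lowest of these differences belonged to the tile at chr4:124849001-124850000, whose measured CpGs lie past the Mtf1 end, inside 1110065P20Rik. Control library 5 had 34.6% there and the other 9 libraries 0% to 9.83%, and without that library the read-weighted difference went from -6.42 to -0.11 percentage points.

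**Figure D4:**
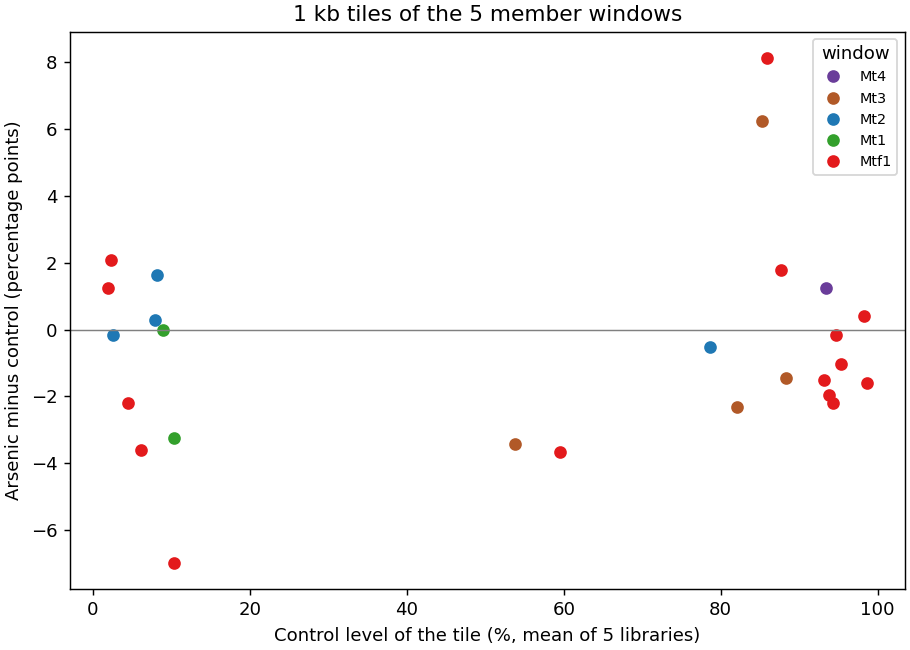
Difference in methylation level, arsenic minus control, in percentage points, against the control level (%, mean of 5 libraries) of each 1 kb tile in the windows, coloured by gene. Tiles fall into a low and a high group with 2 between them, and the highest point, at 8.15, is the Mtf1 tile whose groups do not overlap.

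One Mtf1 tile had groups that did not overlap. It lies inside the gene at chr4:124816001-124817000 and held 10 CpGs between +13575 and +13799. Control libraries 1 to 5 were at 77.5%, 89.9%, 91.9%, 77.7% and 92.5%, and arsenic libraries 1 to 5 at 93.7%, 97.3%, 93.0%, 92.7% and 93.5%. Every arsenic library was above every control library, but 3 of the controls came within 3 percentage points of the lowest arsenic library, and control libraries 1 and 4 were far lower. The means of 85.9% ± 7.65 and 94.0% ± 1.89 differed by 8.15 percentage points, with an unadjusted p of 0.00619 and an adjusted p of 0.806 from the quasi-binomial model, so the difference did not pass. The mean was higher in arsenic at all 10 CpGs. At +13702 control libraries averaged 89.5% ± 4.86 and arsenic libraries 98.8% ± 1.14 (unadjusted p = 0.000246, adjusted p = 0.642 in the quasi-binomial model), with 57 to 130 reads per library. At +13712 it was 88.8% ± 7.53 and 97.7% ± 1.67 (adjusted p = 0.651, same model). The groups did not overlap at either CpG, and at +13702 the strands gave unadjusted p-values of 0.00962 and 0.00813 in that model when tested apart. Neighbouring CpGs in the tile can share reads, so they do not count as separate observations.

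The other tile with an unadjusted p under 0.05 covered the Mtf1 CpGs just past the start, at chr4:124803001-124804000. Its level was 1.90% ± 1.73 in control and 3.15% ± 1.21 in arsenic, the groups overlapped, and the adjusted p was 0.857 in the quasi-binomial model. Inside Mtf1 the CpG at +42066 was the one with the smallest p among those lower in arsenic, at 98.6% ± 1.73 and 92.6% ± 4.45 (adjusted p = 0.676, same model). At +47824, inside 1110065P20Rik, the means were 6.48% ± 6.80 and 0.670% ± 1.02 (adjusted p = 0.676, same model). There the control libraries 1, 2 and 5 were at 11.1%, 5.88% and 15.4% and the other 2 at 0%, and without control library 5 the read-weighted difference went from -5.65 to -3.02 percentage points.

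A group of 4 Mt2 CpGs around the start held reads with methylation in some control libraries and almost none in arsenic libraries. At +3, whose guanine is the first base of the MRE match at +4, control libraries 1 to 5 were at 33.3%, 4.88%, 4.35%, 0% and 14.3%, and all 5 arsenic libraries were at 0%. The highest value was 8 of 24 reads (95% exact Clopper-Pearson interval 15.6% to 55.3%). The arsenic library with the fewest reads had 0 of 32 (same kind of interval, 0% to 10.9%). Control library 4 also had 0, of 17 reads (same kind of interval, 0% to 19.5%), so the groups overlapped at 0. The unadjusted p was 0.00178 and the adjusted p 0.651 in the quasi-binomial model. At -31 the controls were at 14.3%, 0%, 2.33%, 0% and 18.2%, and the arsenic libraries again all at 0% (adjusted p = 0.689, same model). The means were 9.93% ± 11.8 and 0.952% ± 2.13 at -15, and 5.30% ± 7.14 and 1.27% ± 2.84 at -2. These CpGs were read on 1 strand at 16 to 63 reads per library and lie close together, so the same reads can carry all of them. Without control library 1 the read-weighted difference at +3 went from -10.1 to -5.60 percentage points, and without control library 5 that at -31 went from -5.59 to -3.31. The intervals cover counting error only, as the reads carry no molecular identifiers.

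**Figure D5:**
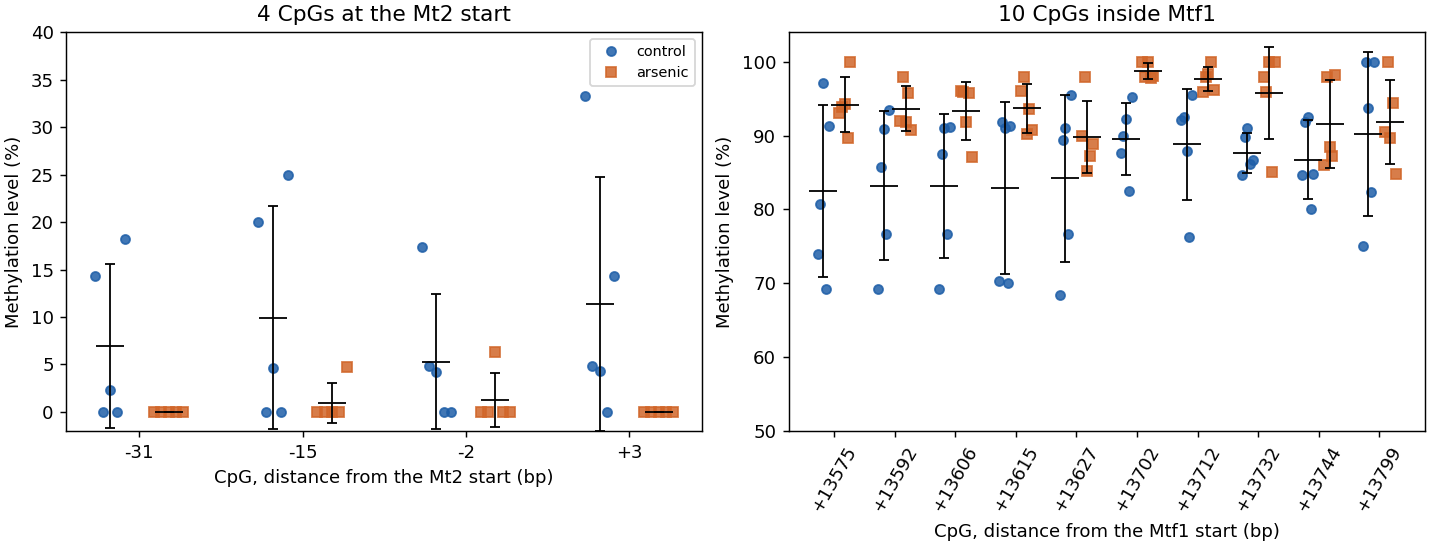
Methylation level (%) in each library, with the mean and SD of each group of 5, at 4 CpGs of the Mt2 start (left, axis from 0 to 40) and at the 10 CpGs of the Mtf1 tile (right, axis from 50 to 100); control libraries are circles and arsenic libraries squares. At the Mt2 start the raised points are controls, 33.3% at most, with other controls at 0; in Mtf1 the groups separate fully at +13702 and +13712.

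The 2 Mt1 start CpGs with the smallest p among those lower in arsenic also rested on 1 or 2 control libraries, while methylated reads at other CpGs of that start came from libraries of both groups. At -34 control libraries 1 and 5 were at 7.41% and 13.8%, and the other 8 libraries were at 0% (adjusted p = 0.725, quasi-binomial model). At +327 only control library 1 had methylated reads, 12.7% (adjusted p = 0.687, same model), so without it the difference was 0, and without control library 5 the read-weighted difference at -34 went from -5.22 to -2.33 percentage points. The opposite direction also occurred in both genes. At Mt2 +191, within the start, the means were 0.571% ± 1.28 and 3.57% ± 2.81 (adjusted p = 0.705, same model), and at Mt2 +603, further into the gene, it was 13.5% ± 11.9 and 20.3% ± 3.01 (adjusted p = 0.737, same model). In Mt1 the CpG at +455 was at 1.07% ± 1.49 and 4.90% ± 1.87 (adjusted p = 0.735, same model) and that at +414 at 0% and 1.89% ± 2.71 (adjusted p = 0.753). Without arsenic library 5 the read-weighted difference at +414 went from 1.53 to 0.62 percentage points. Except for Mt2 +603, these CpGs lie within 500 bp of the starts, whose means given above average over both directions.

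The single CpGs of Mt3 and Mt4 that stood nearest to a difference were in methylated stretches. In Mt3 the smallest p-values among CpGs lower in arsenic were at -1471, with 72.5% ± 18.98 and 61.4% ± 11.4, and at -1623, with 98.8% ± 2.63 and 93.3% ± 7.83. Among those higher in arsenic they were at +3359, with 90.2% ± 13.4 and 95.1% ± 2.44, and at +2263, with 82.5% ± 10.5 and 87.5% ± 5.21. At +3359 control library 5 had 67.6% and the other controls 88.6% to 100%, and without it the read-weighted difference went from 4.29 to 0.26 percentage points. At +2263 that difference went from 6.02 to 2.93 without control library 1, to 3.92 without arsenic library 2 and to 9.60 without control library 5. At -1623 it went from -5.22 to -2.54 without arsenic library 1, and at -1471 from -13.5 to -8.49 without arsenic library 5. In Mt4 the CpG at +1613 was at 90.9% ± 6.63 and 97.8% ± 3.21, that at +1680 at 94.99% ± 2.02 and 90.7% ± 4.63, and that at +1772 at 94.5% ± 3.14 and 95.5% ± 3.22. The read-weighted difference at +1613 went from 5.35 to 3.42 without control library 1 and to 8.22 without control library 3, and that at +1680 from -3.93 to -2.08 without arsenic library 1. At +1772 the strands moved apart, by 8.66 percentage points on the plus strand and -8.16 on the minus strand, arsenic minus control (unadjusted p = 0.0193 and 0.0561 in the quasi-binomial model). None of these 7 CpGs had an unadjusted p under 0.05 with both strands summed, and their lowest adjusted p was 0.774 in that model.

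Besides the members, 7 protein-coding genes with measured windows lie within 50000 bp of the members. Next to the metallothioneins, Bbs2, a gene of the ciliary BBSome, averaged 94.9% ± 0.810 in control and 94.6% ± 0.840 in arsenic libraries, and the nucleoporin gene Nup93 at 52.0% ± 1.03 and 52.0% ± 3.30. Next to Mtf1, Inpp5b was at 42.9% ± 0.590 and 43.8% ± 0.469 (exact permutation p = 0.0556). The window of 1110065P20Rik was at 22.1% ± 4.54 and 18.8% ± 1.37, and that of Yrdc at 14.9% ± 4.95 and 11.4% ± 1.35. Maneal was at 19.2% ± 2.02 and 17.9% ± 0.658, and the receptor kinase gene Epha10 at 61.2% ± 1.21 and 62.2% ± 0.827. The windows of Inpp5b, 1110065P20Rik, Yrdc and Maneal share CpGs with that of Mtf1. None was called, and the low level of Mt1 and Mt2 lay between methylated or mixed neighbours on both sides.

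The wider zinc pathway was read through 29 genes. They were Slc30a1 to Slc30a10 of the zinc exporter family and Slc39a1 to Slc39a14 of the zinc importer family, whose members do not all carry chiefly zinc. Gclc, Selenoh, Ndrg1, Csrp1 and Slc40a1 were listed as known Mtf1 targets. Of the 29 genes 28 were measured, and Slc30a8 had 0 CpGs in its window. None was called, and 2 (7.14%) had an unadjusted p under 0.05, beside 5.68% of all gene windows, both lower in arsenic. The mean was lower in arsenic in 17 and higher in 11, with a median difference of -0.34 percentage points, beside -0.21 over all gene windows, of which 57.6% were lower in arsenic. Slc30a4, a zinc exporter that loads vesicles, was at 2.12% ± 1.05 in control and 0.993% ± 0.727 in arsenic (adjusted p = 0.815, quasi-binomial model). Csrp1, a LIM-domain protein gene, was at 55.6% ± 1.32 and 54.7% ± 1.08 (adjusted p = 0.874, same model), and Slc39a13 at 47.6% ± 1.65 and 46.9% ± 0.515. The smallest model p-values among those with a higher read-weighted level in arsenic belonged to Slc39a12, at 82.7% ± 5.54 and 89.2% ± 2.80 over 3 CpGs, Slc39a14, at 55.0% ± 1.67 and 55.5% ± 1.15, and Slc39a11, at 78.8% ± 0.565 and 79.1% ± 0.267. By the mean over CpGs, the smallest exact permutation p of the list was that of the importer Slc39a10, named after its values were seen, at 45.0% ± 0.773 and 46.6% ± 1.17 (exact permutation p = 0.0317, not adjusted over the 28 windows), with a model p of 0.971 before adjustment. The levels of the list ran from 2.12% to 91.9% in control, so zinc genes as a group held no common level.

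As a description, the windows most like each member across the 10 libraries were sought among 16419 gene windows with at least 10 CpGs, by Pearson's r of the window level. For Mt1 they were Csk (r = 0.965), Hsdl2 (0.9505) and Myo1h (0.9504), and for Mtf1 they were Hcn4 (0.961), Slc35d1 (0.9505) and Tmem143 (0.9503). For Mt2 they were Klkb1 (0.909), Mrpl20 (0.878) and Ube2cbp (0.864), for Mt3 Zfp229 (0.927), Celf5 (0.899) and Dusp2 (0.895), and for Mt4 Th (0.953), Depdc1b (0.884) and Zfp64 (0.858). The points of each r share their libraries and depth. An r over 0.8 was reached by 2.38% of windows for Mt1 and 2.20% for Mtf1, and by 0.268% for Mt2, 0.158% for Mt4 and 0.140% for Mt3. Mt1 and Mtf1 are the members in which control library 5 was the highest of all.

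Depth and cell content were read over the whole table. Total reads at CpGs ran from 69771871 in control library 4 to 100355708 in arsenic library 3. Median coverage per CpG was 49, 40, 47, 37 and 39 reads in control libraries 1 to 5. In arsenic libraries 1 to 5 it was 47, 51, 53, 50 and 48 reads, so control libraries 2, 4 and 5 were below every arsenic library. Control libraries 4 and 5 stood apart in the mean over all gene starts, at 8.24% and 8.84%, beside 7.25% to 7.59% in the other 8. Starts of germ cell genes, which are methylated in somatic tissue and unmethylated in germ cells, were at 20.8% ± 1.86 in control and 18.02% ± 3.08 in arsenic over 8 of 9 genes (exact permutation p = 0.135). Dazl, Asz1, Tex101 and Ddx4 were lower in arsenic, by -12.4 percentage points at most. Tdrd1, Sycp1, Mael and Sycp3 were higher, by 4.56 at most. Maternally methylated imprinted starts, unmethylated in male germ cells, were at 11.7% ± 4.15 and 10.7% ± 1.46 over 6 of 13 (exact permutation p = 0.619), and the paternally methylated region upstream of H19 was at 95.1% ± 3.16 and 95.5% ± 1.59. These are the low maternal and high paternal marks of male germ cells. Of the Sertoli cell list only Inhbb was measured, 1 of 5 genes, at 6.03% ± 4.94 and 0.458% ± 0.372 (exact permutation p = 0.00794, the smallest that 5 against 5 can give, not adjusted). Over all gene starts the lowest adjusted p was 0.164 in the quasi-binomial model, so no start passed. The Leydig cell list was measured at 2 of 5 genes, at 14.9% ± 10.4 and 13.8% ± 7.36 (exact permutation p = 0.849). The part of depth and of cell content in the values of the metallothionein genes and Mtf1 was not tested. In bulk DNA a change in methylation and a change in the mixture of cells cannot be told apart.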

How the data were processed

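Per the file headers, the deposited table holds raw counts of all, methylated and unmethylated reads per cytosine, as methylKit writes after uniting libraries. The submitters' processing notes name Trim Galore 0.6.5, Bismark 0.22.3, methylKit 1.22.0 and mm10, whose settings are not stated there. Every cytosine had at least 10 reads in every library, the coverage minimum used, so regions read more thinly in any library are not analysed here. Reads of both strands of a CpG were summed. No 2 libraries held identical values.

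Genes came from a RefSeq table and starts from a RefSeq promoter table, both on GRCm38.p6, the assembly behind mm10; of 69858 measured CpGs inside promoter sequences, 69853 read CG. Exons, introns and UTRs were not analysed here. A tile or gene window needed at least 3 CpGs, and gene windows reached 5000 bp beyond both ends. Single values were compared with two-sided exact permutation tests over 252 assignments of the labels. Features were fitted with a quasi-binomial logistic model whose dispersion was squeezed over all features as in limma and kept at 1 or more, tested with an F test. The model was tested on simulated data. Tools were Python 3.11.15, numpy 2.4.6, scipy 1.17.1, pandas 2.3.3, limma 3.58.1 and R 4.3.3.

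Members and gene lists were chosen with earlier results of these data known. Named were all members, the tiles of their windows, the 2 CpGs with the smallest p per direction in each member, genes within 50000 bp, the 3 pathway windows with the smallest p per direction, and the 3 windows most like each member. The remaining CpGs of the Mt2 and Mt1 starts, the Mtf1 tile and the Mt1 3' part that are given with values were chosen after their values were seen. Alternatives tried were coverage minimums, strands kept apart, other flanks, tile lengths and CpG minimums, pooled reads, libraries left out, the replicate number as a term, limma and a binomial test.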

Additional observations from a re-analysis of the deposited data

Results flagged for a closer look

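In 94 groups of 5 library values (windows, their parts and tiles), 10 held a library set apart. Its gap to its nearest neighbour was over 0.710 of the group's range. For independent groups with a normal spread, chance alone marks about 1 in 20. Some of these groups hold the same CpGs and many levels lie near 0% or 100%, so that rate is only a rough guide here. At the 3 CpGs inside Mt4, which make up both the gene body and its only tile, arsenic library 1 was lowest at 89.7%. In the Mt1 gene body control library 3 was highest at 38.7%, and in the Mtf1 gene body arsenic library 5 was highest at 81.99%. The other marked values were all in tiles of the Mtf1 window. In the tile that begins 4452 bp past the start, control library 1 had 70.8% and arsenic library 3 had 69.7%, each the lowest of its group. Arsenic library 2 had 97.3% in the tile that begins at 13452 bp, whose groups did not overlap. Control library 5 had 34.6% in the tile that begins at 46452 bp, whose measured CpGs lie beyond the gene. Also beyond the gene, in the tile that begins at 48452 bp, control library 1 had 20.1% and arsenic library 4 had 8.61%. The other 8 libraries were at 0% to 1.56% there.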

How the results depend on the processing

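No call was made among the 5 windows and the tiles and CpGs given with values under any alternative except the binomial test, which treats reads as replicates, and some differences, all arsenic minus control in percentage points, changed sign: 3 of 289 values of CpGs under the alternatives, 3 of 90 of tiles, 12 of 89 of member window levels, 25 of 256 of window parts and 21 of 357 of read-weighted gene windows. With libraries left out one at a time, the window difference ran from -1.94 to 0.46 for Mt1, from -0.15 to 0.85 for Mt2 and from -0.94 to 0.19 for Mtf1, and it kept its sign for Mt3 and Mt4. Parts of windows that turned ran from -5.77 to 0.24 (Mt3 gene body), from -1.97 to 0.79 (Mt3 downstream), from -0.20 to 1.15 (Mt2 upstream), from -0.47 to 0.70 (Mt2 start) and from -2.32 to 1.06 (the CpGs between Mt2 and Mt1). The same held in Mt1 for the gene body, from -0.055 to 3.53, and the downstream CpGs, from -5.84 to 2.07. Read-weighted differences of gene windows ran from -0.49 to 1.12 (Mt4), from -1.54 to 0.69 (Mt3), from -0.45 to 2.19 (Mtf1), from -0.14 to 0.57 (Bbs2), from -1.52 to 1.65 (Nup93) and from -1.25 to 0.73 (Maneal). The Mtf1 tile at the 3' end of the gene ran from -6.99 to 0.57 and the Mt4 CpG at +1772 from -0.60 to 1.54.

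Without control libraries 4 and 5 together, the signs turned for the Mt1 window (1.09), the Mt1 downstream CpGs (5.13), the read-weighted Mt2 (0.23) and Mtf1 (-0.97) windows and the Mtf1 tiles at 44452 bp (2.91) and 46452 bp (0.31). The Mt2 gene body then differed by 4.03, with an exact permutation p of 0.0357. With all libraries kept, the read-weighted difference was -0.51 for the Mt2 window and 1.02 for the Mtf1 window. Both are opposite in sign to the differences in the means over CpGs, 0.28 and -0.60. A coverage of at least 20 turned the Mt4 window (-0.87, and -1.19 read-weighted), the Mt2 upstream CpGs (-1.01) and the Mt1 start (0.053). At least 30 turned the Mt1 window (0.56) and the Mt1 start (0.32). Flanks of 2 kb turned the read-weighted Mt2 (0.47) and Maneal (0.62) windows, and flanks of 10 kb the Mt2 (-0.26) and Mt1 (0.11) windows. Pooled reads turned the Mtf1 (1.04) and Mt2 (-0.74) windows. Starts of 250 bp turned the Mt2 start (-0.50) and the Mtf1 upstream CpGs (0.54), and starts of 1000 bp the Mt1 start (0.00054). The cause was not tested.

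The binomial test called 63 gene windows, 1986 tiles and 41326 CpGs over the whole table, among them the Mt2 CpG at +3 (adjusted p = 2.29e-05) and the Mt3 CpG at -1471 (adjusted p = 0.049). limma called 1 gene window, 1 tile and 0 CpGs. The replicate block, the shared library number as a term, called 0 gene windows, 0 tiles and 0 CpGs, with exact sign-flip p-values of 0.4375 to 0.6875 for the member windows and of 0.0625 to 0.875 for their parts. The Mtf1 start, higher in arsenic in all 5 numbered pairs, had the 0.0625, the smallest that 5 pairs can give. Same-numbered libraries deviated together at r of -0.0108 to 0.0151, and 3 of 10 libraries correlated best with their own number. No pairing by number was seen in these values. They do not settle whether same-numbered libraries share an origin, and the labels do not say what the numbers stand for. At 11 to 26 reads per CpG, as downstream of Mt1, a difference of a few percentage points was not detectable at a single CpG.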
